A study of Mus musculus with 12 samples.

Results

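Genes usually read as markers of sensory neurons were followed through purified mouse cranial motor neurons (cMNs), 8 in all: *Pou4f1*, *Pou4f2*, *Pou4f3*, *Tlx3*, *Prrxl1*, *Eya1*, *Avil* and *P2rx3*. The members were taken by symbol, and all 8 were found among the 49671 gene identifiers of the bulk RNA-seq tables. The cells were GFP-positive cells sorted from wildtype embryos of C57BL/6J females crossed with 129S1/C57BL/6J *Isl*MN:GFP males, in which a motor neuron reporter labels the cMNs. They came from the nuclei of the oculomotor nerve (cMN3), the trochlear nerve (cMN4) and the facial nerve (cMN7) at embryonic days e10.5 and e11.5, with 2 replicates (A and B) in each of 6 groups and 12 libraries in all. Cells of several litters were merged for a sample, embryo sex was not determined, and the reporter and mixed background were shared by all groups. RNA was amplified across the whole transcriptome at e10.5, while at e11.5 it was selected with oligo-dT, with removal of ribosomal RNA and beta-globin transcripts, so age and library preparation cannot be told apart.

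The libraries held 13991802 to 30536210 summed expected counts, and levels are given as CPM scaled by the trimmed mean of M-values unless another scale is named. Mean *Isl1* levels were 424 to 595 CPM over the 6 groups. Genes more particular to cholinergic motor neurons were uneven: *Slc18a3*, the vesicular acetylcholine transporter, had means of 24.4 to 103 CPM, *Chat*, which makes acetylcholine, had means of 1.91 CPM in cMN3 and 16.8 CPM in cMN7 at e10.5, and *Mnx1*, a motor neuron homeobox gene, held 0 counts in cMN3 and cMN4 at e10.5. Ribosomal RNA loci took 8.86 to 30.2% of the counts at e10.5 and at most 0.571% at e11.5.

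In the peripheral nervous system, POU4 homeodomain factors act with other homeobox genes to fix sensory neuron identity once neurons have left the cell cycle. *Pou4f1* is broadly active in sensory ganglia, *Pou4f2* is known from retinal ganglion cells and *Pou4f3* from hair cells. *Tlx3* and *Prrxl1* (also called *Drgx*) specify glutamatergic neurons of the dorsal spinal cord and hindbrain and of sensory ganglia. *Eya1* encodes a transcriptional coactivator and phosphatase that works with homeobox proteins in cranial placodes, *Avil* encodes the actin-binding protein advillin, and *P2rx3* encodes an ATP-gated channel of nociceptors. The sensory ganglia of the cranial nerves lie beside the hindbrain and themselves express *Isl1*, so the question put to the libraries was whether these genes moved together, as they would if their reads came from 1 kind of cell in varying amount.

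The 8 genes did not move as a block. *Pou4f1*, *Pou4f2* and *P2rx3* were highest in cMN7, while *Eya1* and *Avil* were highest in cMN4 and lowest in cMN7. *Prrxl1* differed widely between replicates. *Tlx3* was low, at 49 counts or fewer, with its highest values in cMN4 at e10.5, and *Pou4f3* was almost absent. The mean of cMN3 and cMN4 was compared with cMN7 by edgeR's quasi-likelihood test with Benjamini-Hochberg adjustment over 18022 genes, and called genes had an adjusted p under 0.05. Of 7 members that passed the filter on low counts, 2 were called higher in cMN3/4 over both ages, beside 5.05% of all genes tested, and 4 lower, beside 6.18%. At e10.5 there were 2 higher, beside 5.33% of all genes, and 4 lower, beside 6.16%. At e11.5 there were 2 higher, beside 2.26%, and 3 lower, beside 2.71%. These are bulk measurements, in which fewer cells of a type and less RNA per cell cannot be told apart.

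**Figure D1:**
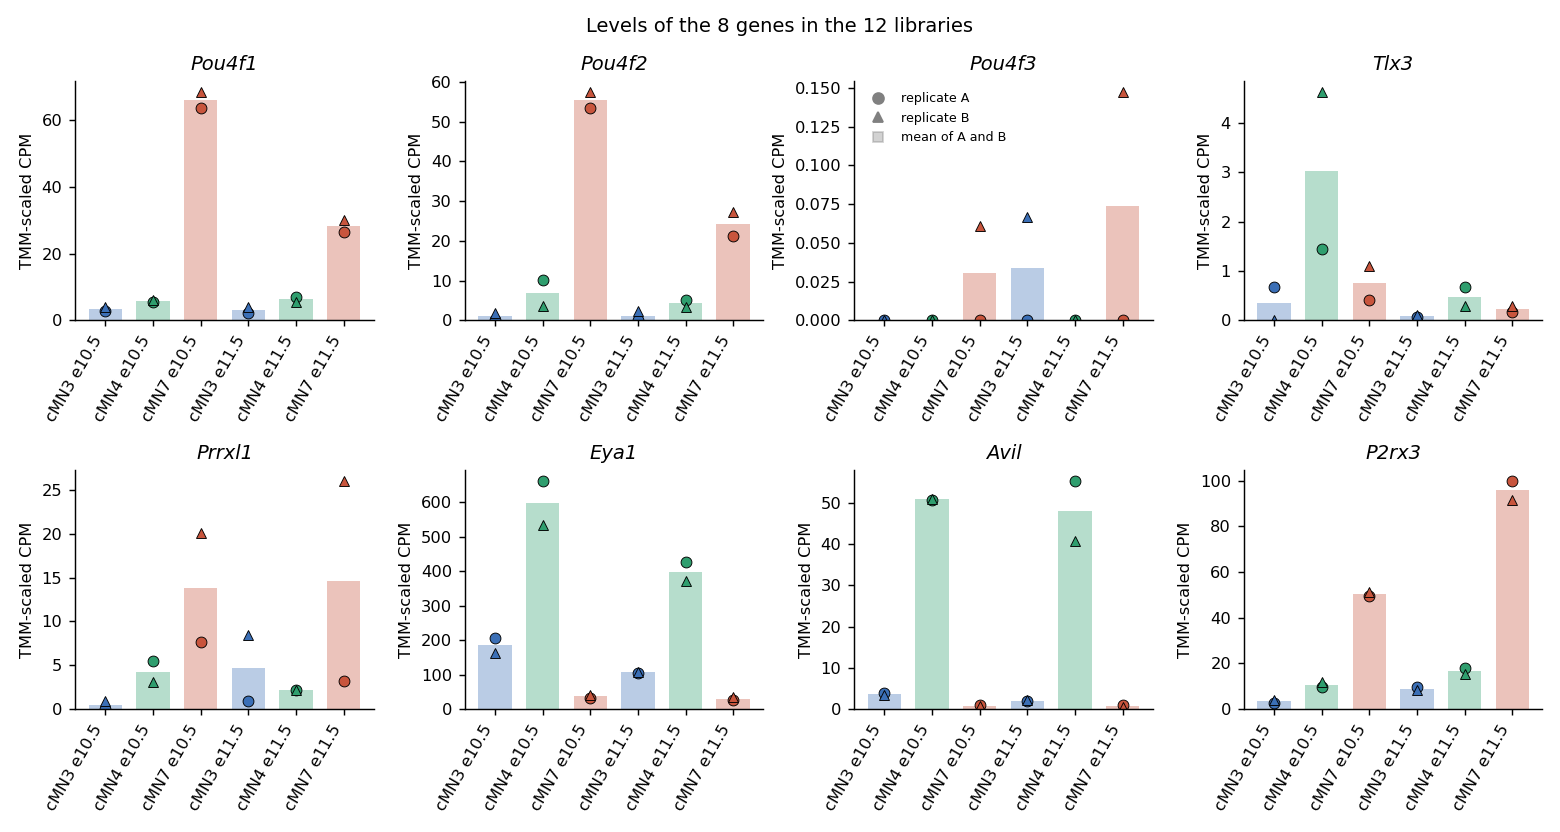
Level of each of the 8 genes (y axis, TMM-scaled CPM, a separate scale for each gene) in the 6 groups (x axis), with circles for replicate A, triangles for replicate B and bars for their mean. *Pou4f1*, *Pou4f2* and *P2rx3* stand highest in cMN7 at both ages, *Eya1* and *Avil* stand highest in cMN4, and the 2 cMN7 replicates of *Prrxl1* at e11.5 lie at 3.15 and 26.0 CPM.

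*Pou4f1* (ENSMUSG00000048349, chr14:104461676-104467999, minus strand, GRCm38) measured 63.6 and 68.4 CPM in cMN7 at e10.5 and 26.7 and 30.2 CPM in cMN7 at e11.5. In cMN4 it measured 5.37 and 6.23 CPM at e10.5 and 7.10 and 5.64 CPM at e11.5. In cMN3 it measured 2.75 and 4.09 CPM at e10.5 and 2.11 and 3.88 CPM at e11.5. Every cMN7 library was therefore above every cMN3 and cMN4 library of either age. The log2 fold change of cMN3/4 relative to cMN7 was -3.90 at e10.5 (standard error, SE, 0.24; adjusted p = 1.58e-06) and -2.70 at e11.5 (SE 0.23, adjusted p = 2.11e-05), by edgeR.

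*Pou4f2* (ENSMUSG00000031688, chr8:78433010-78436645, minus strand) followed the same order of nuclei. It measured 53.3 and 57.4 CPM in cMN7 at e10.5 and 21.3 and 27.3 CPM at e11.5. In cMN4 the values were 10.04 and 3.49 CPM at e10.5 and 5.22 and 3.38 CPM at e11.5. In cMN3 replicate A held 2 counts at each age, while replicate B held 22 counts at e10.5 and 69 counts at e11.5, or 1.91 and 2.31 CPM. The cMN7 libraries again lay above all others, whereas the replicates within cMN3 stood far apart. Over both ages the log2 fold change of cMN3/4 relative to cMN7 was -3.95 (SE 0.52, adjusted p = 0.000301), and the call at e11.5 (-3.41, adjusted p = 0.0146) was lost with DESeq2 (adjusted p = 0.0608).

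*Pou4f1* and *Pou4f2* are paralogs, and their transcripts share sequence in the coding region. The longest run of identical bases between their annotated transcripts was 71 bases, shorter than the 100-base reads, and the runs shared with *Pou4f3* were 41 and 35 bases. The run is shown because it is the longest stretch in which the paralogs have the same letters, and how reads were assigned between them was not tested. It lies in exon 2 of each gene, at chr14:104466039-104466139 in *Pou4f1* and chr8:78435047-78435147 in *Pou4f2* (GRCm38, both on the minus strand), with the shared run in capitals and 15 flanking bases on each side in lower case, 5′ to 3′ along the transcript.
Pou4f1: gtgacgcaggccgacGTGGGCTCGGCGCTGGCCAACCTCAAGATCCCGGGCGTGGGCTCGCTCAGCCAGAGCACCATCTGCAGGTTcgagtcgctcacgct
Pou4f2: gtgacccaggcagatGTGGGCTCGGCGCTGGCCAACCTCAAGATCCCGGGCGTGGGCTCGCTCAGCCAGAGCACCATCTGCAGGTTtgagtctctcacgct
The ratio of *Pou4f1* to *Pou4f2* counts was steady in cMN7, at 1.19, 1.19, 1.25 and 1.10 in the 4 libraries. In cMN4 at e11.5 it was 1.36 (95% exact binomial interval 1.08 to 1.72) in replicate A and 1.67 (1.33 to 2.10) in replicate B. The replicates parted in the other groups: in cMN4 replicate A at e10.5 it was 0.535 (0.406 to 0.700) and in cMN4 replicate B at e10.5 it was 1.78 (1.18 to 2.75). In cMN3 at e10.5 it was 26.0 (6.85 to 220) in replicate A, against 2.14 (1.26 to 3.72) in replicate B. In cMN3 at e11.5 it was 28.0 (7.40 to 237) in A, against 1.68 (1.24 to 2.30) in B. The intervals cover counting error only, and they do not overlap between the replicates of cMN3 at either age or of cMN4 at e10.5.

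*P2rx3* (ENSMUSG00000027071, chr2:84998583-85037462, minus strand) was even between replicates and also peaked in cMN7. It measured 49.6 and 51.3 CPM in cMN7 at e10.5 and 99.9 and 91.7 CPM in cMN7 at e11.5. In cMN4 it measured 9.53 and 11.98 CPM at e10.5 and 18.1 and 15.6 CPM at e11.5, and in cMN3 2.85 and 4.17 CPM at e10.5 and 9.55 and 8.43 CPM at e11.5. All 3 nuclei were ordered cMN7, cMN4, cMN3 at both ages with no overlap of libraries. The log2 fold change of cMN3/4 relative to cMN7 was -3.05 (SE 0.17, adjusted p = 7.83e-07) at e10.5 and -2.96 (SE 0.16, adjusted p = 6.1e-07) at e11.5. The 5′ end of *P2rx3* overlaps 229 bases of the opposite-strand gene *Ssrp1*, which encodes a histone chaperone subunit, and *Ssrp1* itself did not pass the test (-0.14, adjusted p = 0.369).

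P2X3 subunits form channels alone or with P2X2, and the other P2X genes were low. *P2rx2* was lower in cMN3/4 than in cMN7 over both ages (-2.03, SE 0.35, adjusted p = 0.00215), and its mean level was 13.4 CPM in cMN7 at e11.5 and 0.757 to 2.39 CPM in the other groups. Of the 7 P2X genes 5 could be tested, and *P2rx3* and *P2rx2* were the 2 called, both lower, beside 6.18% of all genes tested. *P2rx4*, found in many cell types, held mean levels of 2.06 to 3.94 CPM in the 6 groups and did not pass (adjusted p = 0.675). *P2rx1* and *P2rx5* did not pass the filter, *P2rx6* had a log2 fold change of 0.49 (adjusted p = 0.825) and *P2rx7* one of -2.21 (adjusted p = 0.253).

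*Eya1* (ENSMUSG00000025932, chr1:14168954-14310235, minus strand) was high in cMN4 and cMN3 and low in cMN7, the opposite of *Pou4f1*. It measured 662 and 535 CPM in cMN4 at e10.5 and 426 and 371 CPM in cMN4 at e11.5. In cMN3 it measured 207 and 163 CPM at e10.5 and 104 and 109 CPM at e11.5. In cMN7 it measured 33.3 and 39.7 CPM at e10.5 and 25.3 and 34.5 CPM at e11.5. The nuclei did not overlap at either age. The log2 fold change of cMN3/4 relative to cMN7 was 3.19 (SE 0.19, adjusted p = 1.43e-06) at e10.5 and 2.78 (SE 0.19, adjusted p = 3.24e-06) at e11.5. Per length, on the deposited TPM scale, *Eya1* reached 226 to 393 TPM in the cMN4 libraries, while the highest *Avil* value there was 47.8 TPM.

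Among its relatives, *Eya2* was also higher in cMN3/4 (2.50, SE 0.15, adjusted p = 5.46e-07), with mean levels of 292 and 227 CPM in cMN3, 198 and 151 CPM in cMN4 and 47.9 and 29.0 CPM in cMN7 at e10.5 and e11.5. *Eya2* was higher in cMN3 than in cMN4 (0.57, SE 0.15, adjusted p = 0.0466), the reverse of *Eya1*. *Dach2*, a corepressor family member that works with EYA proteins, was higher in cMN3/4 as well (1.98, adjusted p = 3.35e-05). Of 18 genes of the *Pou4*, *Tlx*, *Eya*, sine oculis and *Dach* families 16 could be tested. Over both ages 3 were higher in cMN3/4 (*Eya1*, *Eya2*, *Dach2*), beside 5.05% of all genes tested. Lower were 4, *Pou4f1*, *Pou4f2* and *Tlx1* among them, beside 6.18%. The median log2 fold change was 0.00 beside -0.01 over all genes. *Eya3* (-0.01, adjusted p = 0.992) and *Eya4* (-1.53, adjusted p = 0.198) did not pass.

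*Avil* (ENSMUSG00000025432, chr10:127000709-127020994, plus strand) was almost restricted to cMN4 by level. It measured 50.7 and 51.0 CPM in cMN4 at e10.5 and 55.3 and 40.9 CPM in cMN4 at e11.5. In cMN3 it measured 3.86 and 3.48 CPM at e10.5 and 1.84 and 2.11 CPM at e11.5, and in cMN7 0.893 and 0.673 CPM at e10.5 and 0.983 and 0.588 CPM at e11.5, from 11 to 24 counts. The cMN4 libraries did not overlap with any other library. cMN4 exceeded cMN7 by a log2 fold change of 6.01 (SE 0.31, adjusted p = 8.94e-07) at e10.5 and 5.94 (SE 0.30, adjusted p = 1.1e-06) at e11.5. The 3′ 9423 bases of the gene overlap *Tsfm*, a mitochondrial elongation factor gene on the opposite strand. Whether counting used strand is not given in the sources used here, so reads in the overlap cannot be assigned by it. *Tsfm* measured 6.76 to 13.4 CPM in the 12 libraries and did not pass the test (0.06, adjusted p = 0.903). Of 8 villin and gelsolin family genes 5 could be tested, and *Avil* was the 1 called over both ages, higher in cMN3/4, beside 5.05% of all genes tested. The others tested, *Gsn*, *Svil*, *Flii* and *Vill*, had log2 fold changes of -0.51, -0.39, 0.05 and 0.21 with adjusted p values of 0.0658 to 0.936.

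**Figure D2:**
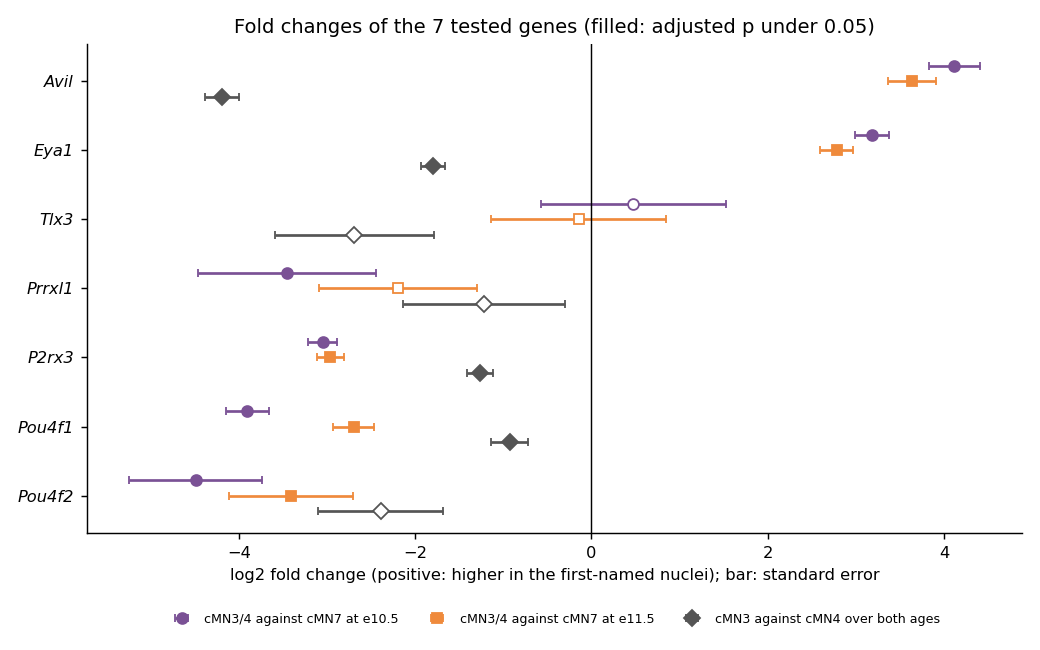
Log2 fold change (x axis, points) with its standard error (bars) for the 7 tested genes (y axis), for cMN3/4 against cMN7 at e10.5 and e11.5 and for cMN3 against cMN4 over both ages, with filled symbols for an adjusted p under 0.05. *Avil* at 4.12 and 3.64 and *Eya1* at 3.19 and 2.78 lie right of 0 against cMN7, *P2rx3*, *Pou4f1* and *Pou4f2* lie left of 0, and no gene lies right of 0 for cMN3 against cMN4.

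The upstream sequence of *Pou4f1* and *Pou4f2*, which were highest in cMN7, is printed beside that of *Avil*, which was highest in cMN4, as the 250 bases before the annotated start (RefSeq, GRCm38.p6). RefSeq promoter entries were matched for 5 of the 8 members. Matches to CANNTG, the E-box read by proneural factors, are in capitals, and TAATTA, a core read by homeodomain proteins, was searched in the same way. Both strands were searched, each pattern is its own reverse complement so that a match counts for both strands, and a match is a description of the letters only.
Pou4f1, chr14:104468000-104468249, minus strand: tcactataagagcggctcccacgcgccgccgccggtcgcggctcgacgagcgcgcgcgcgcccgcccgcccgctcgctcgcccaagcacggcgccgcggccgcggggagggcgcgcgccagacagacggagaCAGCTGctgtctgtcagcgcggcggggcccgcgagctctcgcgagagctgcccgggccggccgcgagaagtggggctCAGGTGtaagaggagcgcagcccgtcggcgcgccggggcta
Pou4f2, chr8:78436648-78436897, minus strand: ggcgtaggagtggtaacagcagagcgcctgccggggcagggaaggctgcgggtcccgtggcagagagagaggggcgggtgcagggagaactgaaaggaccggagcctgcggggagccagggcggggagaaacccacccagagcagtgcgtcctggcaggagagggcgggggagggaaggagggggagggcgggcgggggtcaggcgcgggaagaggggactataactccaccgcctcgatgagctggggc
Avil, chr10:127000459-127000708, plus strand: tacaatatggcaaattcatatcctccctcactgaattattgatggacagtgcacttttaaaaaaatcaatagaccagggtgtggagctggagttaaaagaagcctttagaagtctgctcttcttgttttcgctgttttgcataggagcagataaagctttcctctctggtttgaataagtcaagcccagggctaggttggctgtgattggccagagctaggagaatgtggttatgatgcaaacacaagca
The *Pou4f1* window held 2 CANNTG matches and the other 2 windows held 0. TAATTA was in 0 of the 3 windows. Of 32536 windows of this length before annotated starts, 66.2% held CANNTG and 4.8% held TAATTA.

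*Prrxl1* (ENSMUSG00000041730, chr14:32599407-32649246, plus strand) was highest in cMN7 at e10.5, and its replicates stood far apart in cMN7 and cMN3 at e11.5. In cMN7 it measured 7.68 and 20.1 CPM at e10.5 and 3.15 and 26.0 CPM at e11.5 in replicates A and B. In cMN3 it measured 0 and 0.870 CPM at e10.5, where 3 counts would be 0.158 CPM in replicate A, and 0.865 and 8.43 CPM at e11.5. In cMN4 it measured 5.43 and 3.11 CPM at e10.5 and 2.12 and 2.20 CPM at e11.5. The cMN7 libraries lay above the others at e10.5, but at e11.5 cMN3 replicate B exceeded cMN7 replicate A. Over both ages *Prrxl1* was lower in cMN3/4 than in cMN7 (-2.83, SE 0.68, adjusted p = 0.0184). The call was lost without cMN4 e10.5 replicate B (-2.75, adjusted p = 0.051), without cMN7 e10.5 replicate B (-2.40, adjusted p = 0.116) and without cMN7 e11.5 replicate B (-1.72, adjusted p = 0.144), and with limma on TPM or with voom weights (adjusted p = 0.0603 to 0.149). At e10.5 the adjusted p was 0.0487, lost with DESeq2 (0.0732) and without any e10.5 library but cMN3 replicate B (0.101 to 0.348). At e11.5 it was 0.296, and without cMN7 e11.5 replicate B the e11.5 log2 fold change was 0.01.

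Of the dorsal hindbrain genes, *Lbx1*, *Tlx1* and *Slc17a6* were, like *Prrxl1*, far higher in replicate B than in replicate A of cMN7 at e11.5. *Lbx1*, a homeobox gene of dorsal hindbrain interneurons, measured 20.5 and 54.8 CPM in cMN7 at e10.5 and 1.15 and 20.7 CPM in cMN7 at e11.5. In cMN3 at e11.5 it held 0 counts in replicate A and 61 in replicate B, and the other cMN3 and cMN4 libraries held at most 1 count. *Tlx1*, a relative of *Tlx3*, held 4 and 168 counts in cMN7 at e11.5 and 0 and 37 counts in cMN3 at e11.5. *Slc17a6*, the vesicular glutamate transporter VGLUT2, measured 6.23 and 41.7 CPM in cMN7 at e11.5 and 14.3 and 14.8 CPM in cMN3 at e11.5. These 3 genes were named after their values were seen. Within the same cMN7 replicates at e11.5 the B to A ratios were 8.25 for *Prrxl1*, 18.1 for *Lbx1* and 6.70 for *Slc17a6*, but 1.13 for *Pou4f1*, 1.29 for *Pou4f2* and 0.918 for *P2rx3*. The whole list of 12 dorsal hindbrain genes summed to 94.2 and 171 CPM at the lowest and highest in cMN7 at e10.5, 29.9 and 111 CPM in cMN7 at e11.5, 37.9 and 92.5 CPM in cMN3 at e10.5, 49.9 and 66.3 CPM in cMN3 at e11.5, and 21.4 to 59.7 CPM over the cMN4 libraries. Different genes made up these sums, so they are no measure of 1 kind of cell. In cMN3 at e10.5 the largest parts were *Lhx9* and *Lhx2*, with means of 22.6 and 16.8 CPM, while *Lbx1* and *Tlx1* held 0 counts. In cMN7 at e10.5 *Lhx9* and *Lhx2* had means of 0.122 and 0.0909 CPM. Of the list's 11 genes tested, 3 were higher in cMN3/4 over both ages, beside 5.05% of all genes tested, and 4 lower, beside 6.18%. The median log2 fold change was -0.77. Those called lower included *Olig3* (-2.83, adjusted p = 0.000695), *Lbx1* and *Tlx1*, and those called higher were *Lhx2* (4.70, adjusted p = 0.000259), *Lhx9* (4.69, adjusted p = 0.000544) and *Barhl2*. The part of such cells in the *Prrxl1* values was not tested.

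**Figure D3:**
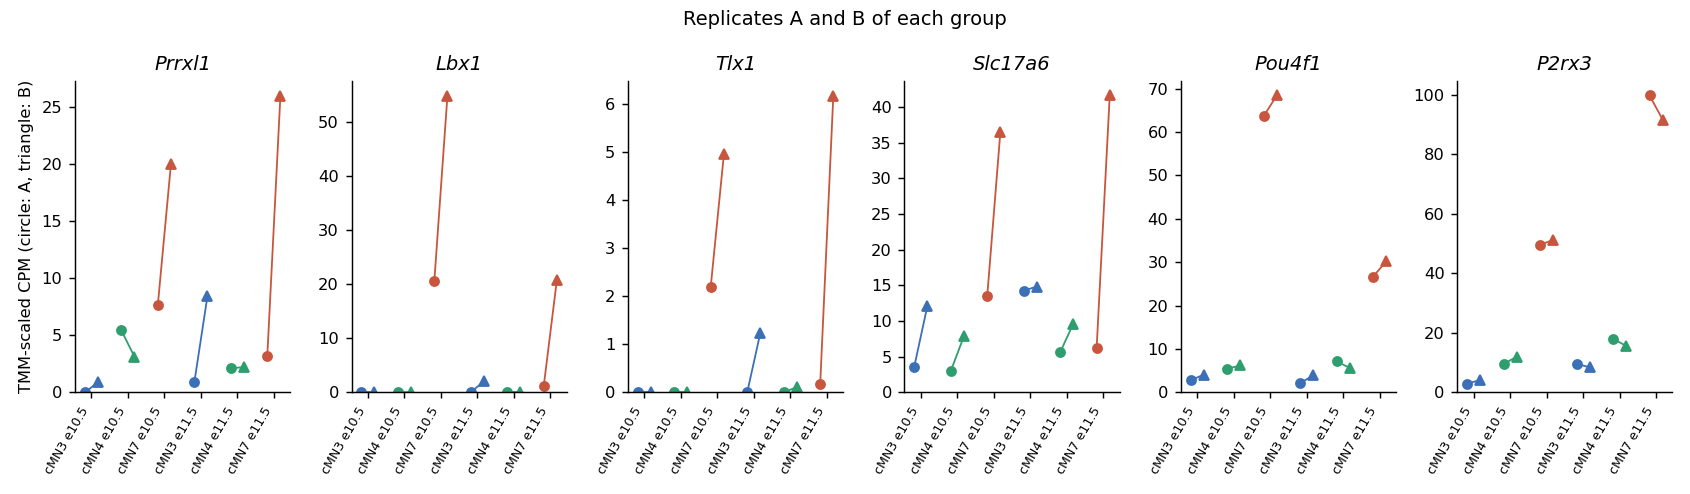
TMM-scaled CPM (y axis, a separate scale for each gene) of *Prrxl1*, *Lbx1*, *Tlx1*, *Slc17a6*, *Pou4f1* and *P2rx3* in the 6 groups (x axis), with a line joining replicate A (circle) to replicate B (triangle). In cMN7 at e11.5 replicate B is far above replicate A for the first 4 genes, at 26.0 against 3.15 CPM for *Prrxl1*, while *P2rx3* measured 99.9 CPM in A and 91.7 CPM in B.

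*Tlx3* (ENSMUSG00000040610, chr11:33200752-33203589, minus strand) held 0 to 49 counts. It measured 1.45 and 4.62 CPM in cMN4 at e10.5 and 0.667 and 0.295 CPM in cMN4 at e11.5. In cMN7 it measured 0.417 and 1.10 CPM at e10.5 and 0.164 and 0.294 CPM at e11.5. In cMN3 it held 13 and 0 counts at e10.5 and 2 and 3 counts at e11.5. Its 2 highest values were thus the cMN4 libraries at e10.5, but the lower of them, replicate A, held 23 counts against 18 in cMN7 e10.5 replicate B. Between cMN4 and cMN7 at e10.5 *Tlx3* did not pass the edgeR test (1.99, SE 1.18, adjusted p = 0.414). *Tlx3* did not differ past the test between cMN3/4 and cMN7 (0.17, SE 0.82, adjusted p = 0.957), a standard error that leaves differences of several fold undetectable at this depth. *Pou4f3* (ENSMUSG00000024497) held 7 counts in all, with 4 in cMN7 e11.5 replicate B, 2 in cMN3 e11.5 replicate B, 1 in cMN7 e10.5 replicate B and 0 in the other 9 libraries, and it did not pass the filter.

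The trochlear nucleus stood above the oculomotor nucleus for every member called between them. Over both ages 4 of 7 members were lower in cMN3 than in cMN4 and 0 were higher, beside 7.06% of all genes called. *Avil* had a log2 fold change of -4.19 (SE 0.19, adjusted p = 2.87e-07), *Eya1* of -1.80 (SE 0.13, adjusted p = 1.42e-05) and *P2rx3* of -1.27 (SE 0.15, adjusted p = 0.000365). *Pou4f1* had one of -0.93 (adjusted p = 0.0249), lost on TPM (adjusted p = 0.347) and when any of 7 single libraries was left out (adjusted p = 0.0517 to 0.0903), all but cMN7 at e11.5, replicate B of cMN3 at both ages and replicate B of cMN4 at e11.5. With a replicate block at e11.5, where the letters were taken to pair the samples, *Pou4f2* was also called (-2.51, adjusted p = 0.0356). Without the block its log2 fold change was -2.39 (adjusted p = 0.0689). *Tlx3* (-2.69, adjusted p = 0.106) and *Prrxl1* (-1.22, adjusted p = 0.503) did not pass, although DESeq2 called *Tlx3* (adjusted p = 0.0243).

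Within an age the pairs of nuclei gave the same picture. Between cMN3 and cMN7, 6 of 7 members were called at e10.5, beside 14.4% of all genes, and 5 at e11.5, beside 4.13%. Between cMN4 and cMN7, 4 were called at each age, beside 6.55% of all genes at e10.5 and 4.14% at e11.5, and they were *Pou4f1*, *P2rx3*, *Eya1* and *Avil*. *Pou4f2* missed the threshold between cMN4 and cMN7 (-3.01, adjusted p = 0.073 at e10.5 and -2.50, adjusted p = 0.185 at e11.5). Between cMN3 and cMN4, *Eya1*, *Avil* and *P2rx3* were the 3 called at each age, beside 7.95% of all genes at e10.5 and 1.85% at e11.5. In the order of levels, cMN7, cMN4 and cMN3 therefore differed step by step for *P2rx3*, and cMN4, cMN3 and cMN7 for *Eya1* and *Avil*. For *Pou4f1* cMN7 differed from both others at each age, while cMN3 and cMN4 did not differ past the test within an age (adjusted p = 0.154 and 0.111).

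Between the ages 1 member rose and 2 fell, beside 49.8% of all genes called. *P2rx3* rose at e11.5 (0.98, SE 0.12, adjusted p = 5.38e-05), with both e11.5 libraries above both e10.5 libraries in all 3 nuclei. *Eya1* fell (-0.56, SE 0.11, adjusted p = 0.00136), but on log2(TPM + 1) its difference was -0.03 (adjusted p = 0.895). *Tlx3* fell (-2.11, adjusted p = 0.0308), a call lost with the replicate block at e11.5 (adjusted p = 0.108) and when any of 8 single libraries was left out (all but cMN3 e10.5 B, cMN4 e10.5 A, cMN7 e10.5 A and cMN7 e11.5 B), and without cMN3 e10.5 replicate A the difference was -0.10. *Pou4f1* missed the threshold (-0.41, adjusted p = 0.0599), passed it with the block at e11.5 (-0.52, adjusted p = 0.0467) and was 0.48 (adjusted p = 0.089) on log2(TPM + 1). In this comparison the block set the e11.5 side at the level of replicate A, against both replicates at e10.5. The age results of *Tlx3* and *Pou4f1* with the block at e11.5 therefore include the A to B difference and are no adjustment for pairing. The estimated effective length that TPM divides by was 4243 and 4240 bases for *Pou4f1* in cMN4 at e10.5, 1631 and 1560 bases in cMN4 at e11.5 and 1557 to 3005 bases in the other nuclei, for a gene with annotated transcripts of 4445 and 799 bases. No member was called for the interaction of nucleus and age by edgeR, beside 0.755% of all genes. At an unadjusted p under 0.05 there was 1, *Pou4f1* (1.20, SE 0.34, adjusted p = 0.149 by edgeR), which DESeq2 called (adjusted p = 0.0301).

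**Figure D4:**
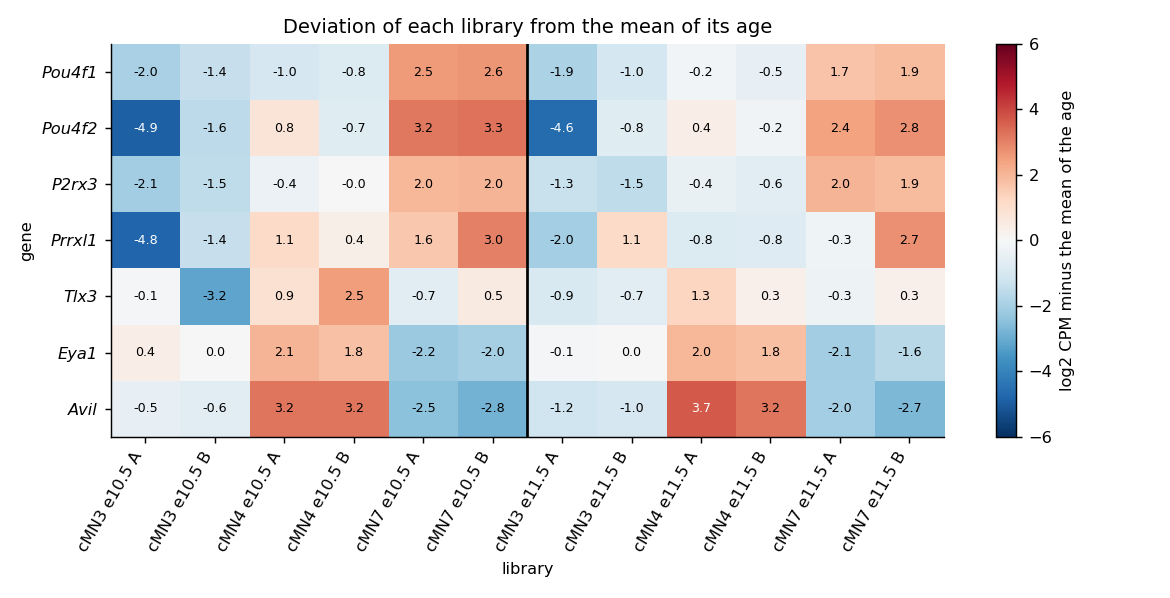
Log2 CPM of each of the 7 tested genes (rows) in each of the 12 libraries (columns) minus the mean of the 6 libraries of its age, with the value printed and coloured from blue (below) to red (above). *Pou4f1*, *Pou4f2* and *P2rx3* are red in cMN7 and *Eya1* and *Avil* are blue there, while *Eya1* and *Avil* are red in the 4 cMN4 libraries.

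Ratios between members within a library showed how far they parted. The ratio of *Pou4f1* to *Avil* counts was 71.3 and 102 in cMN7 at e10.5, 27.1 and 51.3 in cMN7 at e11.5, and 0.106, 0.122, 0.129 and 0.138 in the 4 cMN4 libraries. In cMN3 it was 0.712 to 1.84. The 95% exact binomial intervals of the 3 nuclei did not overlap at either age. *Eya1* to *Avil* ratios were 7.70 to 13.1 in cMN4, 46.8 to 56.3 in cMN3 and 25.8 to 59.1 in cMN7, so this pair also parted between nuclei while sharing its highest nucleus. The *Pou4f1* to *P2rx3* ratio was 1.28 and 1.33 in cMN7 at e10.5 and 0.267 and 0.329 in cMN7 at e11.5. Over the 6 libraries of an age, the standard deviation of the log2 ratio was lowest for *Pou4f1* with *P2rx3*, at 0.58 at e10.5 and 0.38 at e11.5, against 2.04 and 1.51 for *Pou4f1* alone. Of 21 pairs, the ratio was steadier than either member alone for 7 at e10.5 and 4 at e11.5. Those of e10.5 were all the pairs among *Pou4f1*, *Pou4f2*, *Prrxl1* and *P2rx3*, and *Eya1* with *Avil*. Those of e11.5 were *Pou4f1* with *Pou4f2*, *Prrxl1* and *P2rx3*, and *Eya1* with *Avil*.

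**Figure D5:**
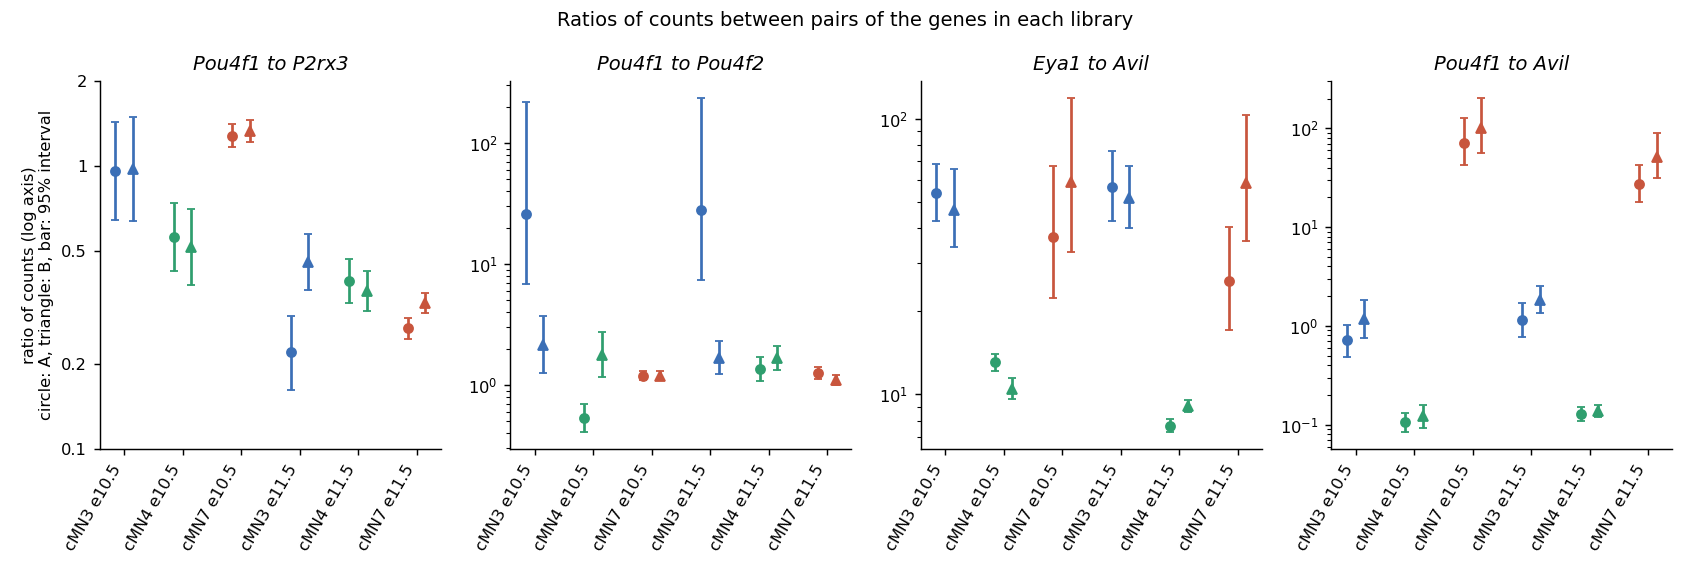
Ratio of the counts of 2 genes within each library (y axis, log scale, a separate range for each pair) in the 6 groups (x axis), with circles for replicate A, triangles for replicate B and bars for the 95% exact binomial interval. The *Pou4f1* to *Avil* ratio runs from 0.106 in cMN4 to 102 in cMN7, and the *Pou4f1* to *Pou4f2* ratio is 1.10 to 1.25 in cMN7 but reaches 28.0 in cMN3 replicate A.

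As a description of likeness, deviations of log2 CPM from the mean of each age were correlated over the 12 libraries. These libraries differ in group, in depth and, between the ages, in preparation, and what an r rests on was not tested. *Pou4f1* followed *P2rx3* (r = 0.963) and *Pou4f2* (r = 0.906) and ran against *Eya1* (r = -0.734) and *Avil* (r = -0.523). *Prrxl1* followed *Pou4f2* (r = 0.856), *P2rx3* (r = 0.729) and *Pou4f1* (r = 0.728) and ran against *Eya1* (r = -0.385) and *Avil* (r = -0.255). *Eya1* followed *Avil* (r = 0.951). Of 21 pairs 13 had r above 0 and 8 below 0. The genes most like *Pou4f1* among those with a mean of at least 1 log2 CPM were *Mab21l2*, *Adcyap1*, the gene of the neuropeptide PACAP, and *Elfn1* (r = 0.981, 0.975 and 0.973). Those most like *P2rx3* were *Mtcl1*, *Mab21l2* and *Pwwp2b* (r = 0.987, 0.985 and 0.981), and *P2rx3* itself ranked 11 of 18021 genes by likeness to *Pou4f1*. With the e10.5 libraries alone that rank was 279, and with the e11.5 libraries alone it was 44. *Nid2*, *Prkce* and *Grik2* were most like *Pou4f2* (r = 0.935, 0.926 and 0.922). *Sox1*, *Tln2* and *Ubash3b* were most like *Avil* (r = 0.989, 0.988 and 0.979), and *Tmem164*, *Trhde* and *Ubash3b* most like *Eya1* (r = 0.983, 0.980 and 0.979). *Cdk17*, *Ccnj* and *Samd8* led for *Prrxl1* (r = 0.905, 0.896 and 0.888) and *Rrp12*, *Camkk2* and *Gpr153* for *Tlx3* (r = 0.947, 0.931 and 0.907).

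Other genes of sensory neurons gave a mixed background to the 8. Of 18 receptors and channels 12 could be tested, and over both ages 1 was higher and 6 lower in cMN3/4 than in cMN7, with a median log2 fold change of -0.93. Over all genes tested, 5.05% were higher and 6.18% lower, and these shares also stand beside the counts of the lists that follow. *Piezo2*, the mechanically gated channel of touch neurons, was lower in cMN3/4 (-5.10, SE 0.37, adjusted p = 2.67e-06), with mean levels of 55.5 and 12.5 CPM in cMN7 at e10.5 and e11.5 and at most 1.25 CPM in the other groups. The neurotrophin receptor genes *Ngfr* (-1.97, adjusted p = 4.17e-06) and *Ntrk3* (-1.55, adjusted p = 1.14e-05) were lower in cMN3/4, and *Ntrk2* was higher (1.87, adjusted p = 6.36e-05). The summed level of these 18 genes was 601 to 603 CPM in cMN7 at e10.5 and 524 to 583 CPM at e11.5, against 241 to 390 CPM over the cMN3 and cMN4 libraries. *Ngfr* and *Ntrk3* were a large part of the cMN7 sums, with means of 259 and 184.5 CPM at e10.5 and 241 and 130 CPM at e11.5. In cMN3 and cMN4 the group means were 40.7 to 108 CPM for *Ngfr* and 19.6 to 81.9 CPM for *Ntrk3*. Channels and receptors that define mature nociceptors and thermoreceptors were at or near 0: *Mrgprd* held 0 counts in all 12 libraries, *Trpm8* 1 count and *Trpv1* 6 counts, with *Trpv1* at 0 in cMN7. *Calcb* held 0 counts in cMN7. *Runx3*, the factor of proprioceptive neurons, held 2 counts in cMN7.

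Of 15 sensory neurogenic and identity factors 13 could be tested, and 0 were higher and 3 lower in cMN3/4, with a median log2 fold change of -0.13. *Shox2* (-5.66, adjusted p = 3.6e-06) and *Runx1* (-3.58, adjusted p = 8.63e-05) were among them, while *Neurog2* did not pass (1.65, adjusted p = 0.0945). Their summed level was 1207 to 1215 CPM in cMN7 at e10.5 and 678 to 749 CPM at e11.5, against 1011 to 1150 and 552 to 627 CPM in cMN3 and cMN4. *Ebf1*, named after its values were seen, was a large part of these sums. Its means in cMN7, cMN3 and cMN4 were 700, 711 and 744 CPM at e10.5 and 336, 458 and 396 CPM at e11.5. Placodal genes (10 listed, 7 tested) had 1 higher, *Eya2*, and 1 lower. Neural crest and glial genes (12 listed, 10 tested) had 1 higher, *Tfap2b* (2.70, adjusted p = 0.00784), and 0 lower. Their summed level was 29.4 to 61.8 CPM in cMN7 and 30.1 to 171 CPM elsewhere, and *Sox10*, the defining factor of crest glia, held mean levels of at most 1.28 CPM. In cMN7 *Sox10* measured 0.0595 and 1.47 CPM at e10.5 and 0.0819 and 2.06 CPM at e11.5 in replicates A and B, while *Pou4f1* and *P2rx3* were level between those replicates. The part of ganglion cells in the cMN7 values was not tested.

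Across the other lists, 2 of 12 motor neuron genes tested were higher and 7 lower in cMN3/4, with a median of -1.08. Of 14 midbrain genes tested 7 were higher and 1 lower, with a median of 1.84. Of 7 progenitor genes 0 were higher and 2 lower (*Hes5* and *Vim*). Of 7 red cell genes, 5 endothelial genes and 6 mesenchymal genes tested, edgeR called 0, and at an unadjusted p under 0.05 there were 0, 1 (*Kdr*) and 1 (*Col3a1*).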

How the data were processed

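Green cells were sorted from dissected embryos and sequenced as 100-base paired-end reads. The authors used STAR for alignment (Ensembl GRCm38.87), and the deposited gene-level tables hold RSEM expected counts, TPM and effective lengths; versions and strandedness are not given in the sources used here. Groups came from the sample labels. The facial, oculomotor and trochlear libraries were analysed, and abducens neurons were not analysed here.

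Expected counts from the deposited files were rounded and tested with edgeR (4.0.16) by quasi-likelihood over 6 groups, with TMM factors, its expression filter (minimum count 10, total count 15; 18022 genes kept, 6 residual degrees of freedom) and Benjamini-Hochberg adjustment at 0.05. A standard error is the log2 fold change over the root of F. P-values measure the spread between these merged-litter samples. Alternatives used DESeq2 (1.42.0), RLE factors, no filter, limma (3.58.1) on log2(TPM + 1) or log2(TPM + 0.1), voom weights, 1 age alone, replicate blocks, and each library left out. The steps were tested on simulated counts. Symbols were matched for 49326 of 49671 identifiers through an annotation of the same build (GENCODE vM21), which also gave positions and transcripts. Named genes were the members, the 4 of each list with the smallest p, whole families, and the 3 genes most like each member (mean log2 CPM of at least 1); genes at or near 0 and the few called in the remaining lists were named after their values were seen. Some genes of the lists are not reported here. The members and lists were chosen with earlier results of these data known.

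Replicate letters are shared by all groups. The A minus B differences correlated between nuclei at e11.5 (0.701, 0.587 and 0.553), so the letters were taken to pair samples there, but not at e10.5 (0.061, 0.013 and 0.092). Totals of 13991802 to 30536210 counts put 3 counts at 0.0805 to 0.283 CPM. Binomial intervals at the 95% level cover counting error only.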

Additional observations from a re-analysis of the deposited data

How the results depend on the processing

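The calls of *Pou4f1*, *P2rx3*, *Eya1* and *Avil* between cMN3/4 and cMN7, over both ages and at each, kept direction and threshold under every alternative. The number of members called between cMN3 and cMN4 was 4, or 7 (0 higher, 7 lower) with no filter on low counts. Between the ages it was 3, or 1 by limma on log2(TPM + 0.1). For the interaction it was 0, or 1 by DESeq2 and 1 with no filter. With no filter, the genes called between cMN3/4 and cMN7 over both ages were 2775, against 2023 with it. For the other comparisons the share of all genes called under each alternative is not given here. These member counts, and those with 1 library left out, therefore describe the members only. With 1 library left out, members called were 5 to 6 over both ages, 5 to 6 at e10.5, 5 to 5 at e11.5, 3 to 5 for cMN3 against cMN4, 2 to 4 between the ages and 0 to 0 for the interaction. Over all genes, 2023 were called over both ages, against 1188 without cMN7 e10.5 replicate A and 1204 without replicate B. The replicate block at e11.5 changed the calls given in the report and no other; with it over all libraries, *Pou4f1* passed between the ages (-0.42, adjusted p = 0.0443) and the members called over both ages were 6.

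Leaving out 1 library added these calls: between cMN3 and cMN4, *Pou4f2* without cMN3 e10.5 replicate B (-3.89, adjusted p = 0.043) or cMN3 e11.5 replicate B (-4.34, adjusted p = 0.012) and *Tlx3* without cMN3 e10.5 replicate A (-5.70, adjusted p = 0.0238); between the ages, *Pou4f1* without cMN3 e10.5 replicate A (adjusted p = 0.0356) or cMN3 e11.5 replicate B (adjusted p = 0.0128), *Pou4f2* without cMN3 e11.5 replicate B (adjusted p = 0.0332) and *Avil* without cMN7 e11.5 replicate A (-0.46, adjusted p = 0.0443).

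Reversals fell on values that did not pass the test. *Tlx3* over both ages was 0.17 but -0.069 on log2(TPM + 0.1), -0.065 with voom weights, -1.35 without cMN3 e10.5 replicate A, -0.10 without cMN4 e10.5 replicate B, -0.007 without cMN4 e11.5 replicate A, -0.10 without cMN7 e10.5 replicate A and -0.009 without cMN7 e11.5 replicate A, up to 0.59 without cMN7 e10.5 replicate B. At e10.5 (0.48) it was -0.19 on log2(TPM + 0.1), -2.54 without cMN3 e10.5 replicate A, -0.047 without cMN4 e10.5 replicate B and -0.057 without cMN7 e10.5 replicate A, up to 1.33 without cMN7 e10.5 replicate B. At e11.5 (-0.15) it was 0.075 and 0.050 on log2(TPM + 1) and log2(TPM + 0.1), 0.094 without cMN4 e11.5 replicate B and 0.33 without cMN7 e11.5 replicate B, down to -0.49 without cMN7 e11.5 replicate A. *Prrxl1* at e11.5 was 0.009 without cMN7 e11.5 replicate B and -3.41 without cMN3 e11.5 replicate B. Between the ages *Prrxl1* was 0.91, but -0.51 with the block at e11.5, which set the e11.5 side at the level of replicate A. Between the ages *Pou4f1* was 0.48 and 0.62 and *Avil* (-0.33) 0.24 and 0.28 on the TPM scales, and *Pou4f2* (-0.47) was 0.52 without cMN3 e10.5 replicate B and -1.77 without cMN3 e11.5 replicate B. For the interaction the TPM scales gave 0.19 and 0.20 for *Eya1* and 0.36 and 0.41 for *Avil*, *Tlx3* was 0.24 on log2(TPM + 0.1) and 2.39 without cMN3 e10.5 replicate A (-1.47 without cMN7 e10.5 replicate B), *P2rx3* was -0.048 without the same library, and *Pou4f2* was -0.88 without cMN3 e11.5 replicate B and 2.58 without cMN3 e10.5 replicate B. The cause was not tested.

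With 2 libraries a group, and *Tlx3*, *Pou4f3* and cMN7 *Avil* at 49 counts or fewer, small differences in these genes could not be detected at this depth.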
